A study of Mus musculus with 6 samples.

Results

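The genes examined were 10 transcripts of the colonic epithelium that make oxidants or act against bacteria: Duox2, Duoxa2, Nox1, Noxo1, Nos2, Reg3b, Reg3g, Lypd8, Lcn2 and Saa1. They were taken by gene name from the 23282 genes of the deposited count table, and all 10 were found once and passed the filter on low counts. The libraries came from colon tissue of 8-week-old WT C57BL/6J mice, 3 labelled as control (vehicle, replicates 3, 5 and 6) and 3 treated with PCN (pregnenolone-16α-carbonitrile, replicates 4, 5 and 6). PCN, a synthetic steroid that activates the pregnane X receptor (PXR) of rodents, was injected intraperitoneally at 40 mg/kg, with 3 injections spaced 8 h apart and tissue taken 8 h after the last. Its solvent was a mix of DMSO and corn oil, and no allele or agent beyond these is named for either group. Whether each library is a separate mouse is not stated, and the p-values therefore rest on variation from library to library, which may be technical. Values per library are given in the order vehicle replicates 3, 5, 6 and PCN replicates 4, 5, 6.

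The colonic surface is held apart from bacteria by secreted proteins and by oxidants that the epithelium makes itself. DUOX2, a dual oxidase, releases hydrogen peroxide at the apical membrane and needs its maturation factor DUOXA2 to leave the endoplasmic reticulum. NOX1 makes superoxide together with the organizer NOXO1, the activator NOXA1 and the membrane subunit p22phox (Cyba), and NOS2 makes nitric oxide. REG3B and REG3G are secreted C-type lectins that bind bacteria, LYPD8 coats flagellated bacteria at the colonic surface, LCN2 binds the siderophores with which bacteria take up iron, and SAA1 is an acute phase apolipoprotein that binds retinol. Many of these genes are known to be induced by microbes and cytokines, and the question asked of the data was whether PXR activation by PCN moved them.

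The mean level of Duox2, Duoxa2 and Nox1 was higher after PCN, 1.64-fold, 2.06-fold and 2.21-fold in mean CPM (read counts per library size, scaled by TMM), and that of Lypd8 was lower at 0.631 of the vehicle mean. Unless DESeq2 is named, estimates, standard errors (SE) and adjusted p-values are those of the quasi-likelihood model in edgeR, with Benjamini-Hochberg adjustment over 16586 genes. None of the 10 genes passed it (adjusted p between 0.318 and 0.856), and it called few genes at all, 5 higher (0.0301% of those tested) and 1 lower (0.00603%, or 0.0362% in either direction). Before adjustment 3 of the 10 were higher and 1 lower at p under 0.05, where 6.25% of all tested genes were higher and 3.73% lower (9.98% in either direction). DESeq2 called Duoxa2 and Nox1 higher and Lypd8 lower, against 1.22% and 0.307% of the genes to which it gave an adjusted p (1.53% in either direction). These calls rest on DESeq2 alone, which made false calls at a higher rate than edgeR on simulated counts. In sign, 6 of the 10 estimates were positive and 4 negative, beside 51.6% and 48.4% of all tested genes. For Noxo1, Nos2, Reg3b, Reg3g, Lcn2 and Saa1 the 2 groups overlapped and no test passed with all 6 libraries.

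**Figure D1:**
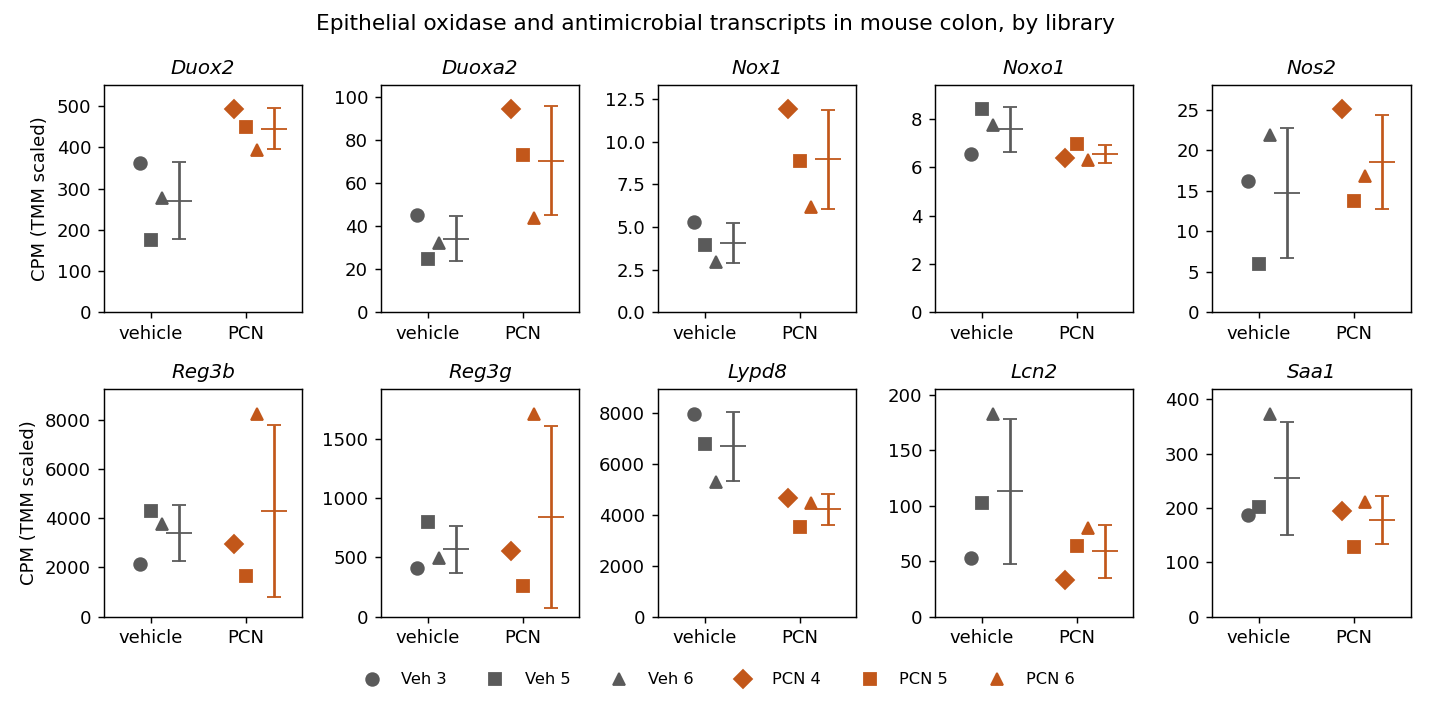
CPM of the 10 genes in each of the 6 libraries (vertical axes, from 0; grey, vehicle; orange, PCN; marker shape gives the replicate), with the mean and SD of each group beside the points (n = 3). The groups are apart for Duox2, Nox1 and Lypd8, and the highest Reg3b and Reg3g values both belong to PCN replicate 6.

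Depth was alike across libraries, with total counts of 21924026 to 25422856. Across genes, log2 CPM correlated at 0.973 to 0.984 between libraries of 1 group and at 0.969 to 0.982 between libraries of different groups. B3galt5, the gene that the study follows, did not overlap between groups (log2 fold change 1.55, adjusted p = 0.0262). Colonic epithelium was well represented, since its markers Epcam and Krt8 had at least 28498 and 54172 counts in every library. The summed FPKM (fragments scaled by gene length and library size, deposited by the authors) of 12 epithelial markers was 4693 to 5337 in vehicle and 4548 to 5583 in PCN libraries. The RNA came from colon tissue, in which fewer cells of a type and less RNA per cell cannot be told apart. The libraries differed in markers of muscle and of pancreas and in genes that mark position along the colon. The summed FPKM of 9 pancreatic acinar markers was 81.5 in vehicle replicate 3 and 17.5 to 31.3 in the other libraries. Ctrb1 had 559 counts in vehicle replicate 3 and 0 to 35 in the others, and Pnlip 255 and 0 to 9. Cela1 was instead highest in PCN replicate 4, at 1751 counts. The part of pancreatic RNA in the levels of the 10 genes was not tested. The summed FPKM of 8 smooth muscle markers was 1596 and 1055 in PCN replicates 4 and 5 and 471 to 838 in the other 4 libraries. Hoxb13, a gene of the distal colon, had 448 and 562 counts in vehicle replicate 5 and PCN replicate 4 and 36 to 137 in the others. Hoxa13 was also highest there (1236 and 1046 counts, 339 to 736 in the others), as was Hoxd13 at 30 counts in each. Hoxd10 and Hoxd11 were lowest there instead, at 112 and 99 counts (165 to 212 in the others) and 50 and 67 counts (93 to 105).

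Duox2 and Duoxa2 lie head to head on chromosome 2 of GRCm38 (mm10), Duox2 on the minus strand from 122279247 to 122298449 and Duoxa2 on the plus strand from 122298900 to 122302885 in the GENCODE annotation, with 451 bp between their start sites. Because the genes of the enzyme and its maturation factor start close together and their levels were both higher after PCN, their start regions are printed, each from 250 bases before to 50 bases after the RefSeq start (GRCm38.p6; Duox2, chr2:122298178-122298477, minus strand; Duoxa2, chr2:122298650-122298949, plus strand). The RefSeq start of Duox2 lies inside the gene as GENCODE draws it. Most of the Duox2 stretch is therefore not between the GENCODE starts, and the printed stretches do not meet. Capitals mark matches to the letters searched on both strands, namely the hexamer AGGTCA and its variant AGTTCA, which nuclear receptors such as PXR bind in pairs, the STAT factor site TTCNNNGAA, the CDX factor site TTTATG, the TATA box letters TATAAA and the kappa-B consensus by its name. Read on the opposite strand, the CDX letters share 5 bases with the TATA box letters.
Duox2: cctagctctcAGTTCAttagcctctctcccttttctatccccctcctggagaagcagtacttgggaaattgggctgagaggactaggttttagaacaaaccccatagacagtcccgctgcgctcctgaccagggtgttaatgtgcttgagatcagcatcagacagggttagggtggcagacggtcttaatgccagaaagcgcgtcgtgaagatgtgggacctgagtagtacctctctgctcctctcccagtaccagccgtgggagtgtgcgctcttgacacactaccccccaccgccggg
Duoxa2: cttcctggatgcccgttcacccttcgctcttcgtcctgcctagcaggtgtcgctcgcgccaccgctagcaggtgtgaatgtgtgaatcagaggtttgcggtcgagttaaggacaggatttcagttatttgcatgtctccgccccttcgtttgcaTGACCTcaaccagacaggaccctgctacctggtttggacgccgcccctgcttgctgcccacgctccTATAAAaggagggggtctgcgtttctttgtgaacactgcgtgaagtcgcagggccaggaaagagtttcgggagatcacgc
The Duox2 region held 1 AGTTCA, found in 4597 of the 32851 start regions in the table. That of Duoxa2 held a TATA box 30 bases before the start (in 13.6% of all start regions) and 1 AGGTCA on the opposite strand (in 16.3%). Only single hexamers were searched, and a match describes the letters and not binding.

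Duox2 (ENSMUSG00000068452) was present at 361, 175 and 277 CPM in the vehicle libraries, and at 492, 450.2 and 393 CPM in the PCN libraries. All 3 PCN libraries lay above all 3 vehicle libraries, and vehicle replicate 5 was the lowest of the 6. Group means were 271 ± 93.6 and 445 ± 49.7 CPM (SD, n = 3 per group; 2-sided exact permutation test, p = 0.1, the smallest that 3 against 3 allow). The log2 fold change was 0.72 (SE 0.23, 95% interval 0.18 to 1.25, adjusted p = 0.403), and DESeq2 gave 0.70 (adjusted p = 0.0976). Of its 100-base windows, 1.88% are shared with Duox1, which had at most 14 counts in any library. Without vehicle replicate 5 the estimate was 0.48 (adjusted p = 0.432).

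Duoxa2 (ENSMUSG00000027225) had 45.3, 24.7 and 32.4 CPM in the vehicle libraries, and 94.3, 73.1 and 43.9 CPM in the PCN libraries. PCN replicate 6 lay just under vehicle replicate 3, so the groups overlapped by that pair. Its log2 fold change was 1.04 (SE 0.30, 95% interval 0.37 to 1.72, adjusted p = 0.355), and DESeq2 called it higher (1.03, adjusted p = 0.0277). Divided by the summed FPKM of the 12 epithelial markers, Duoxa2 no longer overlapped between groups (a mean log2 difference of 0.97; 2-sided exact permutation test, p = 0.1). The ratio of Duox2 to Duoxa2 in FPKM was 1.88, 1.66 and 2.01 in vehicle and 1.23, 1.45 and 2.11 in PCN libraries, overlapping between groups and varying more within PCN. Duoxa2 and Duoxa1, on the opposite strand, share 695 bp at their ends, and 39.1% of the 100-base windows of Duoxa2 transcripts also occur, on either strand, in transcripts of Duoxa1. Whether counting used strand is not stated, so reads from that stretch cannot be assigned. Duoxa1 itself had 13 to 18 counts in vehicle and 19 to 48 in PCN libraries, while Duoxa2 had 600 to 997 and 1036 to 2347.

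Nox1 (ENSMUSG00000031257, chromosome X from 134086421 to 134221956, minus strand) was scarce, at 5.32, 3.92 and 2.94 CPM in the vehicle libraries, and 11.9, 8.83 and 6.14 CPM in the PCN libraries. These values rest on 75 to 117 and 145 to 296 counts, and the groups did not overlap. The gene overlaps Cstf2 on the opposite strand by 399 bp, and 8.82% of its 100-base windows occur in Cstf2 transcripts, so that part of its reads is uncertain. Xkrx on the same strand and Arl13a on the opposite strand also overlap it, by 13034 and 20528 bp. Neither shares a 100-base window with its transcripts. The log2 fold change was 1.14 (SE 0.31, 95% interval 0.42 to 1.87, adjusted p = 0.344), and DESeq2 called Nox1 higher (1.13, adjusted p = 0.0390). Its organizer Noxo1 (ENSMUSG00000019320, chromosome 17 from 24696234 to 24700529, plus strand) was not called, with 6.55, 8.41 and 7.76 CPM in vehicle and 6.39, 6.98 and 6.31 CPM in PCN libraries and a log2 fold change of -0.21 (SE 0.19, adjusted p = 0.727). Nox1 over Noxo1 in FPKM was 0.740, 0.424 and 0.345 in the vehicle libraries, and 1.70, 1.15 and 0.887 in the PCN libraries. Every PCN library had the larger ratio (2-sided exact permutation test, p = 0.1, the smallest possible). Noxo1 is overlapped by Tbl3 on the opposite strand over 2581 bp, and 48.1% of its 100-base windows occur in Tbl3 transcripts, so that part of its reads is uncertain. The partners Noxa1 and Cyba had log2 fold changes of 0.38 and 0.07 (adjusted p = 0.534 and 0.893).

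Smooth muscle markers moved with this pattern. Their summed FPKM was 1596, 1055 and 471 in the PCN libraries, and 838, 510 and 558 in the vehicle libraries. Duox2 and Duoxa2 stood in the same order as these sums within both groups, and Nox1 within the PCN group. All 8 markers had a positive log2 fold change, with a median of 0.58 (0.14 without PCN replicate 4, 0.89 without vehicle replicate 3 and 0.90 without PCN replicate 6), and none passed edgeR or DESeq2 (1 higher before adjustment). In PCN replicate 6, which had the lowest muscle sum of the 6 libraries, Duox2 and Nox1 were above every vehicle library, while Duoxa2, at 43.9 CPM, was below vehicle replicate 3, at 45.3 CPM. Without PCN replicate 6 the log2 fold changes of Duox2, Duoxa2 and Nox1 were 0.78, 1.28 and 1.34, and without PCN replicate 4, the library with the most muscle RNA, 0.64, 0.78 and 0.89 (all with an adjusted p over 0.2 from edgeR, the lowest being 0.212). The part of muscle RNA in these levels was not tested.

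Nos2 (ENSMUSG00000020826, chromosome 11 from 78920787 to 78960254, plus strand) ranged more within the vehicle group than between groups. It had 16.2, 6.02 and 21.9 CPM in the vehicle libraries, and 25.1, 13.8 and 16.8 CPM in the PCN libraries. The lowest value, in vehicle replicate 5, set the direction: the log2 fold change of 0.33 (SE 0.42, 95% interval -0.63 to 1.30, adjusted p = 0.811) became -0.040 without that library. Vehicle replicate 5 was thus the lowest of all 6 libraries for Duox2, Duoxa2 and Nos2 alike.

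**Figure D2:**
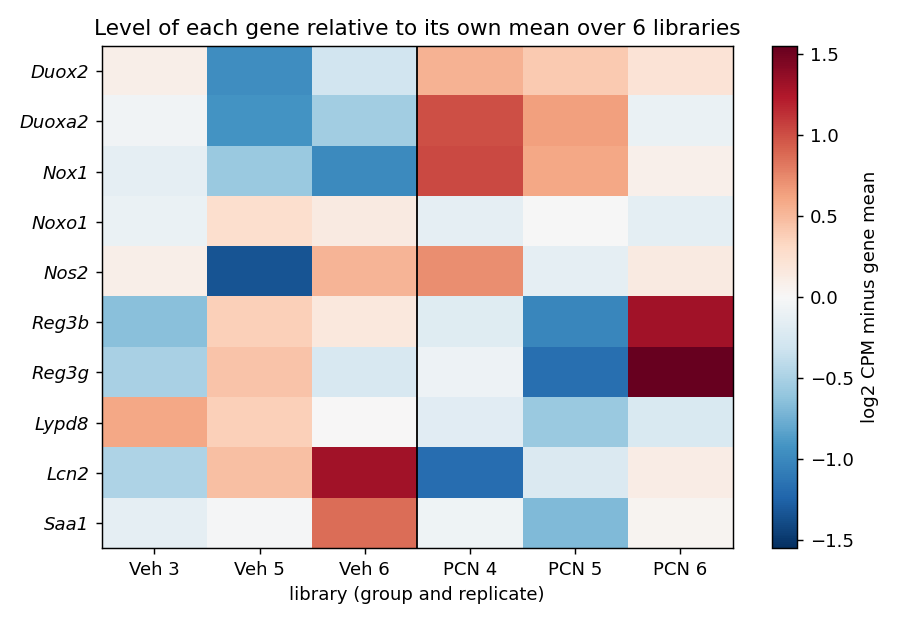
Level of each gene (rows) in each library (columns), as log2 CPM minus that gene's mean over the 6 libraries (red, above; blue, below; the line separates vehicle from PCN). Duox2, Duoxa2 and Nox1 are lowest among the vehicle libraries, Reg3b and Reg3g peak together in PCN replicate 6, and Lcn2 and Saa1 peak together in vehicle replicate 6.

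Reg3b and Reg3g, the lectins, varied widely between libraries of 1 group, and neither passed a test. Reg3b (ENSMUSG00000071356, chromosome 6 from 78370657 to 78373466, plus strand) had 2137, 4299 and 3750 CPM in the vehicle libraries, and 2940, 1663 and 8246 CPM in the PCN libraries. Both the lowest and the highest library were PCN libraries, a 4.96-fold range inside 1 group. Reg3g (ENSMUSG00000030017, chromosome 6 from 78466269 to 78468872, minus strand) had 414, 796 and 495 CPM in the vehicle libraries and 554, 261 and 1717 CPM in the PCN libraries, a 6.58-fold range within PCN. The log2 fold changes were 0.33 (95% interval -0.87 to 1.54, adjusted p = 0.856) and 0.57 (95% interval -0.78 to 1.92, adjusted p = 0.765). Without PCN replicate 6 both turned negative, to -0.58 and -0.50 (adjusted p = 0.560 and 0.645), so 1 library decided their direction. Intervals this wide do not show that the lectins were unaffected.

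Levels of the pair ran in parallel over the libraries. Reg3b over Reg3g in FPKM stayed at 9.56, 9.99 and 14.03 in the vehicle libraries, and at 9.82, 11.8 and 8.89 in the PCN libraries, while the level of either gene ranged several-fold. The longest transcripts of the genes match at 67.4% of 690 aligned bases and share no 100-base window. Their start regions are printed because the genes moved in parallel from GENCODE starts 98215 bp apart on opposite strands. The RefSeq start of Reg3b lies further into the gene than the GENCODE start, so that distance is not between the starts used here. Each region runs from 250 bases before to 50 after the RefSeq start (GRCm38.p6; Reg3b, chr6:78370635-78370934, plus strand; Reg3g, chr6:78468825-78469124, minus strand), with the same letters in capitals.
Reg3b: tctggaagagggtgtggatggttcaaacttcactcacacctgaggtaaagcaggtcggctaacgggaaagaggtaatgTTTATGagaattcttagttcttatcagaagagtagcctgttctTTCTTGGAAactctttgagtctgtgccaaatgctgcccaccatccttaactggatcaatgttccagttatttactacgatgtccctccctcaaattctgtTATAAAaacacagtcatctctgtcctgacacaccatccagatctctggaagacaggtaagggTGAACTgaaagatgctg
Reg3g: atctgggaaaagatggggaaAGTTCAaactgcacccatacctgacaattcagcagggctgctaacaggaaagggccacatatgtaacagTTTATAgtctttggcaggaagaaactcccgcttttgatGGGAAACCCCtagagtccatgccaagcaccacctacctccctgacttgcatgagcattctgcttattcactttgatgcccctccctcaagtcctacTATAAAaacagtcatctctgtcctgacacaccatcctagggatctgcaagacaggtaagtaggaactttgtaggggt
Both held a TATA box, 29 and 27 bases before the start. Reg3b held 1 STAT match (in 8.30% of all start regions) and 1 CDX match (in 11.9%), and Reg3g 1 kappa-B match that reads on both strands (in 8.46%). Each held 1 AGTTCA, on the opposite strand after the start in Reg3b, and Reg3g held another TATAAA on the opposite strand.

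The summed level of neutrophil markers was highest in PCN replicate 6, as were Reg3b and Reg3g. The summed FPKM of 12 neutrophil markers was 106 in PCN replicate 6, 77.2 in vehicle replicate 6 and 25.6 to 40.7 in the other 4. S100a9 alone gave 48.6 FPKM of the sum in PCN replicate 6, where it had 609 counts and Cxcr2 355. Some markers peaked elsewhere, Ly6g in vehicle replicate 5 (188 counts, 91 in PCN replicate 6) and Retnlg in vehicle replicate 6 (246, 191 in PCN replicate 6). Ngp had 28 counts in vehicle replicate 6 and 3 in PCN replicate 6. The granule genes Mpo and Elane had at most 4 and 2 counts in any library. The part of neutrophils in the Reg3b and Reg3g levels was not tested. Of the lectins' relatives on the list, Reg3a and Reg3d had their highest counts in vehicle replicate 5 (825 and 536) and the next in PCN replicate 6 (512 and 380), and neither passed (log2 fold changes of -0.51 and -0.36, adjusted p = 0.850 and 0.917).

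Lypd8 (ENSMUSG00000013643, chromosome 11 from 58379043 to 58390728, plus strand) had the highest mean level of the 10 genes over all 6 libraries, though not in the PCN group, where the mean of Reg3b was higher. It was the 1 of the 10 that DESeq2 called lower. It had 7993, 6808 and 5294 CPM in the vehicle libraries, and 4666, 3540 and 4469 CPM in the PCN libraries, and every PCN library lay under every vehicle library. Such separation in the lower direction held for 7.39% of all genes tested, and in the higher direction, shown by Duox2 and Nox1, for 8.69% (16.1% in either direction). DESeq2 called the fall in means, from 6699 ± 1353 (SD, n = 3) to 4225 ± 601 CPM (SD, n = 3), at -0.68 (adjusted p = 0.0161), while edgeR gave -0.66 (SE 0.17, 95% interval -1.06 to -0.27, adjusted p = 0.318). In share of all counts, Lypd8 took 0.678% in vehicle and 0.415% in PCN libraries. Relative to the epithelial markers the groups stayed apart, with a mean log2 difference of -0.70. The log2 fold change lay between -0.81 and -0.52 whichever library was left out.

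Lypd8 is expressed by surface colonocytes. Of 12 other markers of these cells, 6 estimates were positive and 6 negative, and none passed edgeR or DESeq2 (1 higher and 0 lower before adjustment). Their median was 0.03 and ranged from -0.10 to 0.04 with 1 library left out, and their summed FPKM was 5842 to 7665 in vehicle and 6947 to 8142 in PCN libraries. Car1, a carbonic anhydrase of surface cells, gave 1607 to 4130 FPKM of these sums. The estimates ran from -0.54 for Slc9a3, a sodium-proton exchanger, to 0.59 for Car1 (adjusted p = 0.708 and 0.532). Lypd8l, a gene related by name, had 592 to 1440 counts in vehicle and 857 to 1983 in PCN libraries (log2 fold change 0.33, adjusted p = 0.799). Interferon response genes stood in a like order among the vehicle libraries, with a summed FPKM of 925, 487 and 283 in replicates 3, 5 and 6 against 229 to 343 in PCN libraries, and their part in the Lypd8 level was not tested.

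Lcn2 and Saa1 had lower means after PCN without passing any test on all 6 libraries. Lcn2 (ENSMUSG00000026822, chromosome 2 from 32384633 to 32388252, minus strand) had 53.1, 102 and 183 CPM in the vehicle libraries, and 32.8, 63.5 and 80.0 CPM in the PCN libraries. The log2 fold change was -0.94 (SE 0.45, 95% interval -1.97 to 0.08, adjusted p = 0.519) and became -0.40 without vehicle replicate 6, the highest library (adjusted p = 0.845). Saa1 (ENSMUSG00000074115, chromosome 7 from 46740497 to 46742980, minus strand) had 186, 202 and 374 CPM in the vehicle and 195, 127 and 210.3 CPM in the PCN libraries. Its log2 fold change of -0.52 (SE 0.28, 95% interval -1.17 to 0.14, adjusted p = 0.567) shrank to -0.13 without that same library (adjusted p = 0.903). Of its 100-base windows, 8.96% are shared with Saa2.

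Vehicle replicate 6 was also the highest library for the related acute phase genes. Saa3 had 744, 929 and 2567 counts in the vehicle libraries, and 323, 809 and 988 in the PCN libraries (log2 fold change -0.97, adjusted p = 0.544), and Saa2 had 20, 31 and 82 against 7, 22 and 23 (-1.32, adjusted p = 0.511). PCN replicate 4 was the lowest library for Lcn2, Saa2 and Saa3. Within each group the order of Lcn2 over the replicates was the reverse of that of Nox1. Hepatocytes also make Saa1, and the 5 tested of 10 hepatocyte markers all had negative estimates (median -0.63), with none past edgeR or DESeq2 (0 higher and 0 lower before adjustment). Their summed FPKM was 43.4 to 193 in vehicle and 49.2 to 130 in PCN libraries and came mostly from Hp, haptoglobin, which had its highest count, 7361, in vehicle replicate 6. Alb, albumin, had 3 to 59 counts per library. The part of such cells in the Saa1 level was not tested.

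**Figure D3:**
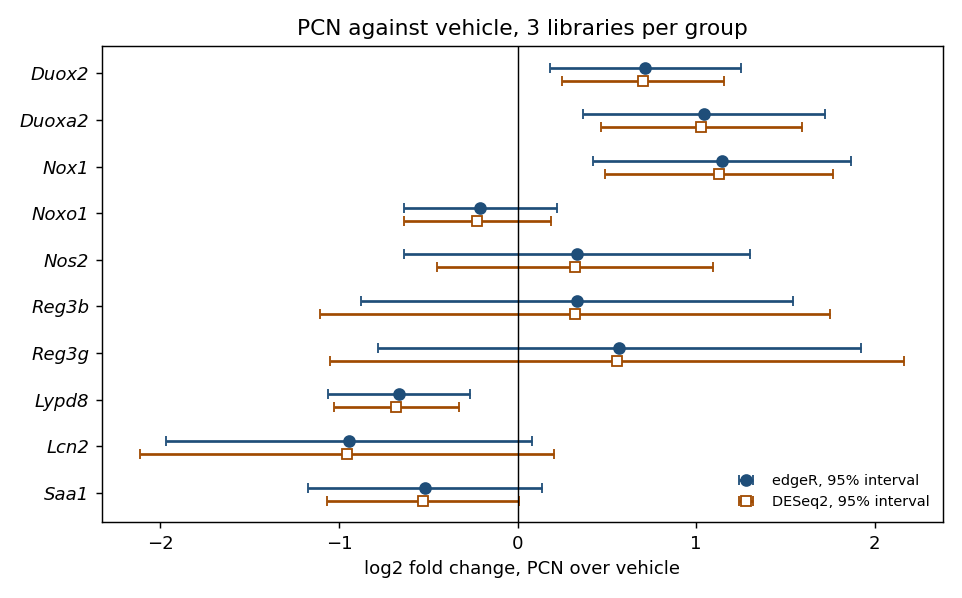
Log2 fold change of each gene, PCN over vehicle, with 95% intervals from edgeR (filled circles) and DESeq2 (open squares), 3 libraries per group. The edgeR intervals of Duox2 (0.18 to 1.25), Duoxa2, Nox1 and Lypd8 leave out 0, before any adjustment for the number of genes tested.

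The plot of fold changes with both tools shows that the estimates differed little between them, by 0.02 or less on the log2 scale for each of the 10 genes. What differed was the adjusted p, which for Duoxa2 was 0.355 from edgeR and 0.0277 from DESeq2. Removing 1 library at a time moved the estimates more.

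**Figure D4:**
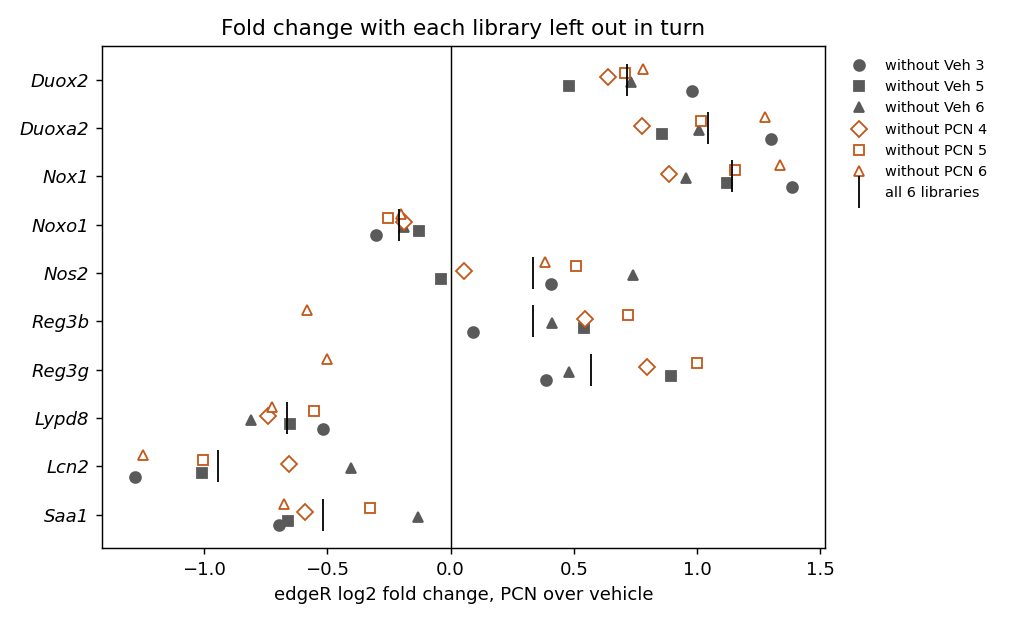
edgeR log2 fold change of each gene with each library left out in turn (grey, a vehicle library; open orange, a PCN library; bar, all 6 libraries). Duox2, Duoxa2 and Nox1 stay above 0 and Noxo1, Lypd8, Lcn2 and Saa1 below 0, while Nos2 changes sign without vehicle replicate 5 and Reg3b and Reg3g without PCN replicate 6.

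Per length of transcript, the 10 genes fell into 3 tiers. Lypd8 had 4259 ± 1312 FPKM and Reg3b 3354 ± 2037 FPKM (SD over 6 libraries), the 4th and 5th highest means of all genes in the table, and their ranges overlapped. Reg3g (332.5 ± 243 FPKM), Saa1 (87.5 ± 36.0), Duox2 (52.7 ± 16.5), Lcn2 (33.1 ± 21.4) and Duoxa2 (32.6 ± 15.97) made the middle tier, in which each gene's range over libraries overlapped that of the next. The lowest tier held Nos2 (1.36 to 5.53 FPKM), Noxo1 (2.35 ± 0.317) and Nox1 (1.95 ± 0.970), again with overlapping ranges. Only from Reg3b to Reg3g and from Duoxa2 to Nos2 did the ranges of neighbours in this order stay apart.

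The genes also differed in spread between libraries of 1 group. The pooled SD of log2 CPM within groups was 1.03 for Reg3g and 0.91 for Reg3b, and only 1.68% and 2.80% of all tested genes had a larger one. It was 0.79 for Lcn2 and 0.75 for Nos2 (larger in 4.95% and 5.92% of genes), 0.39 to 0.50 for Duox2, Nox1, Saa1 and Duoxa2, 0.26 for Lypd8 and 0.14 for Noxo1. With 3 libraries per group such spreads leave wide intervals for the first 4 genes.

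Genes of the same pathways, listed with earlier results of these data known, were then counted. Of 14 relatives of the oxidases and NO synthases tested, 13 had a positive log2 fold change, with a median of 0.30 against 0.01 over all genes tested (0.63 without vehicle replicate 3 and 0.19 without vehicle replicate 5), and none passed edgeR or DESeq2 (2 higher and 0 lower before adjustment). Lpo, a peroxidase that uses hydrogen peroxide, had 939 to 1188 counts in vehicle and 1419 to 1850 in PCN libraries, with no overlap (log2 fold change 0.53, adjusted p = 0.397). The phagocyte subunits Cybb, Ncf4 and Rac2 had log2 fold changes of 0.49, 0.53 and 0.49, beside macrophage markers with a median of 0.38 (11 of 12 positive, 0.75 without vehicle replicate 3 and 0.24 without vehicle replicate 5). Of 17 genes that remove peroxide and superoxide, 8 were positive and 9 negative, and none passed either tool (2 higher and 2 lower before adjustment). Among these Prdx6, a peroxiredoxin, had 0.38 and Cat, catalase, -0.38 (adjusted p = 0.397 and 0.429).

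Other antimicrobial and acute phase genes had a median of 0.32 (0.16 without PCN replicate 6, 0.20 without PCN replicate 4 and 0.14 with no filter), with 18 of 26 positive and none past either tool (6 higher and 0 lower before adjustment). Their summed FPKM was 4581 to 5042 in vehicle and 5562 to 6019 in PCN libraries. Dmbt1, Zg16 and Pigr gave much of these sums, and each of them overlapped between groups. Mptx1 added 933 FPKM in PCN replicate 4 and 55.6 in PCN replicate 6, so the sums do not show a rise across the list. The 4 with the smallest p were Pla2g2a, a gene of the phospholipase A2 family, with an estimate of 1.08, Itln1, an intelectin, with 1.40, Ang4, a ribonuclease of secretory cells, with 0.92, and Sprr2a3, a small proline-rich protein, with 0.88 (adjusted p = 0.410, 0.454, 0.454 and 0.467). Only Pla2g2a did not overlap between groups, at 33 to 62 counts in vehicle and 64 to 124 in PCN libraries. These are RNA counts, and whether a working Pla2g2a protein was made in these mice was not measured.

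Of the signals known to induce these genes, Il22, Il17a and Il17f were at or near 0, with at most 12, 3 and 5 counts in any library, and were not tested. The 17 tested genes of IL-22, IL-17 and STAT3 signalling had a median of -0.01, with 8 positive and 9 negative and none past either tool (1 higher and 1 lower before adjustment). Il6 had 26, 114 and 68 counts in the vehicle libraries, and 8, 19 and 28 in the PCN libraries (log2 fold change -1.90, SE 0.60, adjusted p = 0.397). Socs3, a target of STAT3, had 0.14 (adjusted p = 0.921). Toll-like receptor and NF-kB genes had a median of 0.00, with 13 of 26 positive. DESeq2 called 2 of them higher: Tlr1, with a log2 fold change of 0.80 from edgeR, and Tlr5, the flagellin receptor, with 0.57 (adjusted p = 0.0203 and 0.0435 from DESeq2, 0.295 and 0.3001 from edgeR). Neither overlapped between groups. The interferon response list had a median of -0.82 (-0.37 without vehicle replicate 3), with 39 of 40 negative and none past edgeR (0 higher and 20 lower before adjustment), and DESeq2 called 1 lower, Xaf1 (adjusted p = 0.0104).

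For each of the 10 genes the most similar patterns over the 6 libraries were looked up among the tested genes that averaged at least 1 CPM, by Pearson's r of log2 CPM, as a description. Over only 6 points so many genes give a high r for any pattern. Duox2 was most like Golgb1, a Golgi protein (r = 0.998), Duoxa2 like Fcgbp, a protein of goblet cell mucus (r = 0.995), and Nox1 like Ralgps2 (r = 0.996). Noxo1 was nearest to Hcn3 (r = 0.997), Nos2 to Hs3st3a1 (r = 0.993), Lypd8 to Unc45b (r = 0.995) and Saa1 to Uhrf1bp1 (r = 0.986). Lcn2 was most like Osm, the cytokine oncostatin M (r = 0.989), for which the log2 fold change was -0.87. Neither lectin had the other among its nearest 3: Reg3b was nearest to Pag1 (r = 0.992) and Reg3g to Mrpl57 (r = 0.982).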

How the data were processed

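RNA-seq of mouse colon, 3 vehicle and 3 PCN libraries, was read from 1 deposited table. According to the study's supplementary methods the authors removed adapters and low-quality reads, mapped with STAR and made the deposited read counts per gene with HTSeq. Their text gives a pig genome and TruSeq libraries, whereas the labels name mm10 and a SMARTER kit, and the identifiers are Ensembl mouse genes. The deposited FPKM values are per gene length and library size, with no tool stated. The deposited log2 fold changes and p-values are the authors' own comparison of the groups and were not used.

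edgeR 4.0.16 in R 4.3.3 was the main test (TMM, filterByExpr with a minimum count of 10 and total of 15, glmQLFit, glmQLFTest, Benjamini-Hochberg adjustment over 16586 genes, threshold 0.05). Standard errors were derived from the log2 fold change and F, and 95% intervals from the t quantile. DESeq2 1.42.0 and limma 3.58.1 on log2(FPKM + 1) and log2(FPKM + 0.1) were alternatives, as were RLE scaling, no filter, each library left out and a replicate block. Scaling to epithelial markers and an unpaired fit of replicates 5 and 6 were added after seeing the data. The pipeline was tested on counts simulated with edgeR dispersions. There both tools made false calls above the nominal rate, DESeq2 at a higher rate than edgeR. The 10 genes and all lists were chosen with earlier results of these data known. Text names all 10, up to 4 genes of a list with the smallest p and every called one, the nearest patterns, and further list genes chosen after their values were seen. Members were left out of the marker lists. Positions are from GENCODE M21 (GRCm38) by Ensembl identifier, since deposited starts differed for all 10. Start regions are from RefSeq, whose table held 9 of the 10 genes.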

Additional observations from a re-analysis of the deposited data

How the results depend on the processing

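Duox2, Duoxa2, Nox1, Noxo1, Lypd8, Lcn2 and Saa1 kept their direction under all 14 alternatives in counts or FPKM. Genes called higher and lower, 5 and 1 in edgeR, were 171 and 43 by DESeq2, 25 and 2 with no filter, 30 and 1 in the unpaired fit of replicates 5 and 6, 3 and 1 by limma on log2(FPKM + 0.1), and 0 and 0 by limma on log2(FPKM + 1) with no filter (917 and 1122 before adjustment). Leaving out 1 library gave 0 to 22 higher and 0 to 2 lower, with 22 and 2 without vehicle replicate 3 and 2 and 2 without vehicle replicate 5. Of the 10 genes, DESeq2 called 2 higher (Duoxa2 and Nox1) and 1 lower (Lypd8). With 1 library left out, Nos2 ranged from -0.040 (without vehicle replicate 5) to 0.74, Reg3b from -0.58 (without PCN replicate 6) to 0.72 and Reg3g from -0.50 (without PCN replicate 6) to 1.00. Nox1 was 0.69 by limma on log2(FPKM + 1), whose pseudocount shrinks low genes. Deviations of libraries with the same number correlated at -0.185 and -0.125 (crossed, 0.188 and 0.208). What a replicate number marks is not stated, and so few values cannot settle whether such libraries share a cage, day or batch. The replicate block, possible only for replicates 5 and 6, called 88 genes higher and 15 lower, with 1 of the 10 genes, Lcn2, among the lower (-0.94, adjusted p = 0.0194, with 0.0194 to 0.845 over its alternatives), turned Reg3b to -0.12 and changed no other call among them. The cause of these shifts was not tested. Nox1 has the fewest counts of the 10 genes, 75 to 296 per library.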
